A study of Homo sapiens with 27 samples.

Results

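The secreted inflammatory proteins followed here are encoded by 10 genes, IL6, CXCL8, CXCL1, CXCL2, CXCL3, IL1A, IL1B, CCL2, LIF and IL11, which were read out in 27 RNA libraries of U2OS cells in which the nuclear pore protein TPR had been depleted. They were taken by Ensembl identifier from a table of 34464 genes, because they encode factors of the senescence-associated secretory phenotype, for which TPR has been reported to be needed in senescent cells. U2OS is an established human osteosarcoma line, and no library was labelled as senescent. Cells received lentiviral shRNAs for 5 days, either a scrambled control or 1 of 2 hairpins against TPR, called TPR A and TPR D, and were lysed with detergent into a nuclear and a cytoplasmic/ER fraction beside a total sample of the same culture. Each of the 3 shRNAs was carried through 3 replicate cultures, which gave 9 groups of 3 libraries of poly(A)+ RNA. The infected cells were a drug-selected pool and not a clone, and the wild-type TPR gene was still present. Nothing in the labels says whether the replicates were infected separately, so p-values measure only the spread between these cultures. The main test across genes also counted the 3 libraries of a culture as separate units.

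As background, senescent, damaged or infected cells release a mixture of chemokines, interleukins and proteases. Most of these cytokine genes are switched on by NF-κB together with C/EBP or AP-1 factors, frequently after an upstream signal from membrane-bound interleukin-1α. Their transcripts are usually short-lived, because AU-rich elements in the 3′ untranslated region (3′ UTR) recruit decay factors of the ZFP36 family. All encode proteins that leave the cell. Except for IL1A and IL1B, their mRNAs are translated at the endoplasmic reticulum, which is recovered in the cytoplasmic/ER fraction. TPR forms the filaments of the nuclear pore basket, through which exported mRNPs pass.

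These features can be read in the sequences of the members. Of the promoters, 5 held the NF-κB-type motif GGNNTTTCC on either strand within the 300 bases around the RefSeq start, namely those of IL6, CXCL8, CXCL1, CXCL2 and CXCL3. The motif was found in 6.26% of 35116 promoters of that length. The sequence table gave promoters for 8 of the 10 genes, the other two being CCL2 and LIF. IL1A, IL1B and IL11 held no match. The AP-1-type motif TGANTCA, present in 7.71% of promoters, was found in CXCL8, IL1A and IL11. The 30-base windows around the NF-κB-type match are shown because they show how alike the promoters of the 3 neighbouring CXCL genes are. Each reads 5′ to 3′ on the strand of its gene, in GRCh37 coordinates and from RefSeq, with the match in capitals.
CXCL1, chr4:74735021-74735050, plus strand: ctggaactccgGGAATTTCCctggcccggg
CXCL2, chr4:74964971-74965000, minus strand: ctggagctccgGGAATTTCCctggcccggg
CXCL3, chr4:74904466-74904495, minus strand: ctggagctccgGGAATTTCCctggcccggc
CXCL8, chr4:74606184-74606213, plus strand: ttgcaaatcgtGGAATTTCCtctgacataa
IL6, chr7:22766736-22766765, plus strand: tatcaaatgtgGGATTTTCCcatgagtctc
The match began 78, 77 and 78 bases upstream of the RefSeq start in CXCL1, CXCL2 and CXCL3, 91 bases upstream in CXCL8 and 72 bases upstream in IL6. A match describes these letters and says nothing of binding in these cells.

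The AU-rich pentamer ATTTA was frequent in the 3′ UTRs. It occurred, overlaps counted, 10 times in CXCL2, 9 times in CXCL8 and in IL11, 7 times in CXCL3 and in LIF, 6 times in IL6, CXCL1 and IL1B, 5 times in IL1A and 1 time in CCL2. Of 18365 protein-coding genes, 29.8% had 5 or more. Per length, IL6 stood highest of the members at 14.1 pentamers per kb, more than in 99.5% of genes, and LIF stood lowest at 2.19 per kb, against a median of 1.58. The longer form TATTTAT was present in every member except CCL2, and in 32.4% of all genes. The 30-base windows with most pentamers in the 3′ UTRs of the 2 best known members follow, as DNA letters, with the pentamers in capitals.
CXCL8, bases 644 to 673 of the 3′ UTR: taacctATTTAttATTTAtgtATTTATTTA
IL6, bases 124 to 153 of the 3′ UTR: ttttaattatttttaATTTAttaatATTTA

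All 10 genes were compact. In the GRCh37 annotation they spanned from 1916 bases (CXCL1, chr4:74735110-74737025) to 10569 bases (IL1A, chr2:113531502-113542070), and the median pre-mRNA of the members was 3241 bases against 22871 bases for 12333 expressed protein-coding genes. CXCL8 lay at chr4:74606236-74609433, IL6 at chr7:22765503-22771621, CCL2 at chr17:32582293-32584227, LIF at chr22:30636442-30642748 and IL11 at chr19:55875750-55881831. None lacked introns. The canonical transcripts had 3 exons in CCL2 and LIF, 4 in the CXCL genes, 5 in IL6 and IL11 and 7 in IL1A and IL1B. CXCL1, CXCL2 and CXCL3 share much of their mRNA sequence, with 91.1% of aligned bases alike between CXCL1 and CXCL2, 82.2% between CXCL1 and CXCL3, and 83.6% between CXCL2 and CXCL3, so that reads could be divided among them uncertainly. CXCL8 was further apart, at 65.9% to 67.7% identity to these 3.

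The libraries behaved as labelled in the knockdown. TPR mRNA was 26.4 ± 1.57 FPKM in control total RNA (SD, n = 3, FPKM being reads scaled to transcript length and sequencing depth), 4.17 ± 0.654 with TPR A and 4.66 ± 1.39 with TPR D, an adjusted p of 0.00123 and 0.0016 in limma. A pair of libraries stood apart, and both came from control replicate 2. The library labelled total held 0.738% of its expression in mitochondrial mRNAs, against 15.8% to 24.7% in the other total libraries, whereas the library labelled nuclear held 21.8%, against 0.774% to 2.42%. Each share was thus near that of the other label. The labels were kept, and an exchange of these 2 libraries was not tested. Values without them are given for CXCL8, CCL2 and IL6 in total and nuclear RNA, for LIF and IL11 in total RNA, and for the 2 other genes that were called. Depth, estimated from the smallest steps between low values, ranged from 32.6 to 90.1 reads for 1 FPKM on 1 kb of transcript. Osteoblast-lineage markers were present in part, RUNX2 at 15.8 FPKM, COL1A1 at 42.8 and SPARC at 528.3, while SP7 at 0.0224, BGLAP at 0.0729 and COL1A2 at 0.264 were close to 0. Of 6 leukocyte markers only CD68, a lysosomal protein also made outside leukocytes, exceeded 1 FPKM on average, and PTPRC and CD14 averaged 0.382 and 0.048.

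Only part of the members were expressed above the floor that the tests used. A set of 5 had a mean above 1 FPKM over the 27 libraries, in the order CCL2 (15.1), IL11 (5.43), LIF (3.98), CXCL8 (3.37) and IL6 (1.67). All were modest. CCL2 was above 55.2% of the 14611 genes that passed the same floor, IL11 above 31.0%, LIF above 24.7%, CXCL8 above 21.5% and IL6 above 8.88%. The other 5 fell below the floor, in the order CXCL3 (0.473), IL1A (0.388), IL1B (0.0388), CXCL2 (0.00392) and CXCL1 (0.000893). A gene with a low mean passes or fails by this floor alone, so the 5 that passed are not the whole set.

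**Figure D1:**
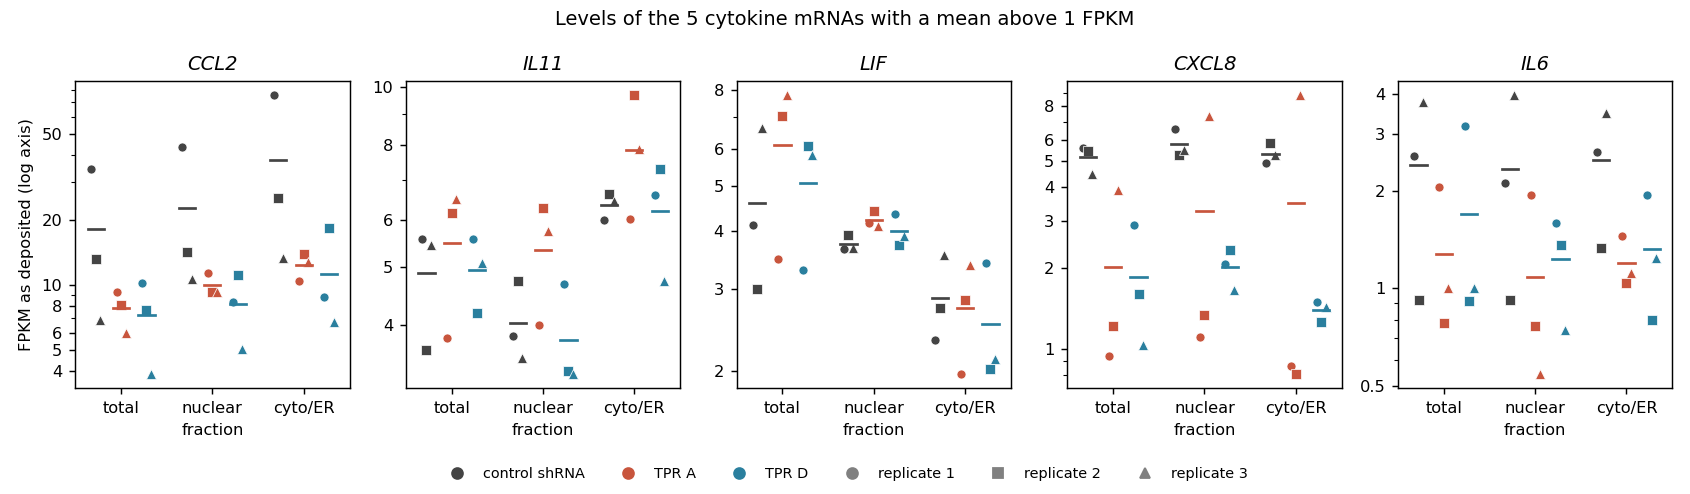
Levels of the 5 members with a mean above 1 FPKM, as deposited, on log axes that differ between genes, by fraction and shRNA. Points are single libraries (marker shape gives the replicate) and bars are group means. The CXCL8 points of TPR D lie below all control points in each fraction, those of TPR A do so except for replicate 3, and the highest CCL2 points belong to control replicate 1.

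CXCL8 was the member with the largest mean log2 difference between TPR-depleted and control cells in total RNA. It encodes interleukin-8, which attracts neutrophils. In control total RNA it was at 5.61, 5.44 and 4.5 FPKM in replicates 1, 2 and 3. With TPR A it was at 0.938, 1.21 and 3.92, and with TPR D at 2.9, 1.6 and 1.03. All 6 TPR-depleted cultures were thus below all 3 controls, a pattern that 2.98% of the 14611 genes showed in that direction (8.33% for TPR A and 7.93% for TPR D alone). In bulk RNA, fewer cells that express a gene and less of its RNA per cell cannot be told apart.

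In nuclear RNA the controls had CXCL8 at 6.62, 5.29 and 5.52 FPKM, TPR A at 1.11, 1.33 and 7.34, and TPR D at 2.08, 2.34 and 1.65. In the cytoplasmic/ER fraction the controls had 4.91, 5.83 and 5.26, TPR A 0.859, 0.803 and 8.83, and TPR D 1.49, 1.26 and 1.43. TPR D was below the controls without overlap in every fraction, as were 8.34% of genes in nuclear and 7.72% in cytoplasmic/ER RNA. TPR A replicates 1 and 2 were likewise below the controls throughout, and replicate 3 was the highest of all nuclear and cytoplasmic/ER libraries. These levels rested on an estimated 40.4 to 529.5 reads per library.

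CXCL8 did not pass the test across genes. The limma difference in total RNA was -1.52 on the log2 scale for TPR A (SE 0.67, 2.87-fold lower, adjusted p = 0.347), -1.48 for TPR D (2.79-fold lower, adjusted p = 0.313) and -1.501 for both together (SE 0.58, 95% interval -2.71 to -0.30, adjusted p = 0.205, unadjusted p = 0.0169). The exact permutation test over cultures gave p = 0.0238 for both shRNAs, two-sided and unadjusted, where 84 divisions of the cultures allow 0.0119 at best. It was 1 of 32 such tests, 8 members by 4 measures, of which 4 were under 0.05. For each shRNA alone the exact p was 0.1, the smallest that 3 against 3 cultures can give. Without the nuclear and total libraries of control replicate 2 the difference was -1.495 with an adjusted p of 0.567, and in nuclear RNA it was -1.38 for TPR A against -1.53 for TPR D (adjusted p = 0.628 and 0.63).

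TPR A replicate 3 decided the call, and leaving out any other culture gave none. The culture stood out by its CXCL8 values, which are the values under test, so calls without it are not independent support. Its removal also lowered the SE in total RNA for both shRNAs from 0.58 to 0.245. When this culture was left out, CXCL8 was called lower in each of the 7 comparisons with control that limma fitted. In total RNA it was then 4.34-fold lower with TPR A (log2 difference -2.12, adjusted p = 0.00357), 2.79-fold lower with TPR D (adjusted p = 0.0149) and 3.48-fold lower with both (adjusted p = 0.00176), where 0.103%, 0.233% and 0.198% of genes were called lower. Over all settings tried the last p ran from 0.00176 to 0.589. In cytoplasmic/ER RNA the fold was 5.66 for TPR A (adjusted p = 0.000426) and 3.58 for TPR D (adjusted p = 0.0023), with 0.13% and 0.308% of genes called lower. In nuclear RNA it was 4.43 (adjusted p = 0.00311) and 2.78 (adjusted p = 0.018), with 0.11% and 0.178%. TPR mRNA in that culture was at 4.7 FPKM in total, 2.35 in nuclear and 0.689 in cytoplasmic/ER RNA, against 3.44 and 4.36, 1.64 and 2.4, and 0.132 and 0.445 in the other TPR A cultures. Its mitochondrial share was 19.02%, 1.15% and 28.1% in the same order, inside the range of the other libraries of each fraction except control replicate 2. The difference between TPR A and TPR D without it was -0.64 (adjusted p = 0.923).

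CCL2, which encodes the monocyte attractant MCP-1, was lower on average in TPR-depleted cells but with wide controls. In total RNA the controls were at 34.3, 13.2 and 6.91 FPKM, TPR A at 9.29, 8.12 and 6.02, and TPR D at 10.2, 7.67 and 3.86. In nuclear RNA the controls were at 43.3, 14.3 and 10.6, TPR A at 11.4, 9.23 and 9.28, and TPR D at 8.32, 11.1 and 5.04. In cytoplasmic/ER RNA the controls were at 75.7, 25.2 and 13.3, TPR A at 10.5, 13.9 and 12.8, and TPR D at 8.79, 18.3 and 6.76. Control replicate 1 was the highest library of every fraction, and the groups overlapped in all of them. Set against the control of the same replicate number and fraction, CCL2 was lower in 18 of 18 TPR-depleted libraries, which come from 6 cultures. This count reuses 3 control cultures and has no share over all genes beside it. By the criterion given under processing, the numbers paired control with TPR A only in total RNA, and control with TPR D in no fraction.

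The limma difference of CCL2 in total RNA was -0.95 for both shRNAs (SE 0.50, adjusted p = 0.351). It was -1.22 with TPR A (unadjusted p = 0.0472, adjusted p = 0.42) and -1.49 with TPR D (SE 0.58, unadjusted p = 0.0178, adjusted p = 0.357) in cytoplasmic/ER RNA, and -0.91 and -1.26 in nuclear RNA (adjusted p = 0.571 and 0.514). The exact permutation test for both shRNAs gave 0.119 in total and 0.0357 in each fraction. Without control replicate 1 the total difference was -0.33 (adjusted p = 0.669), the cytoplasmic/ER differences were -0.55 and -0.81, and the nuclear ones were -0.32 and -0.67. Without control replicate 3 the total difference was -1.46 (adjusted p = 0.118). Without the nuclear and total libraries of control replicate 2 it was -1.05 (adjusted p = 0.683), and the nuclear differences were -1.095 and -1.44 (adjusted p = 0.677 and 0.564).

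The remaining chemokines were low, and CXCL1 and CXCL2 were close to the limit of detection. CXCL1, CXCL2 and CXCL3 are ligands of CXCR2 that attract neutrophils. CXCL1 was listed at 0 in 26 of 27 libraries, and the remaining one, control nuclear replicate 3, held an estimated 1.09 reads. CXCL2 was listed at 0 in 22 libraries, with 5.38 estimated reads over the other 5. No difference in these 2 was detectable at this depth. CXCL3 was found in every library at 0.202 to 0.953 FPKM, or an estimated 6.0 to 43.2 reads.

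In total RNA CXCL3 was at 0.687 ± 0.27 FPKM in controls, 0.493 ± 0.0819 in TPR A cells and 0.452 ± 0.206 in TPR D cells (SD, n = 3). The groups overlapped in every fraction. Fitted without a floor on expression, its difference for both shRNAs in total RNA was -0.44 (SE 0.33, adjusted p = 0.598).

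**Figure D2:**
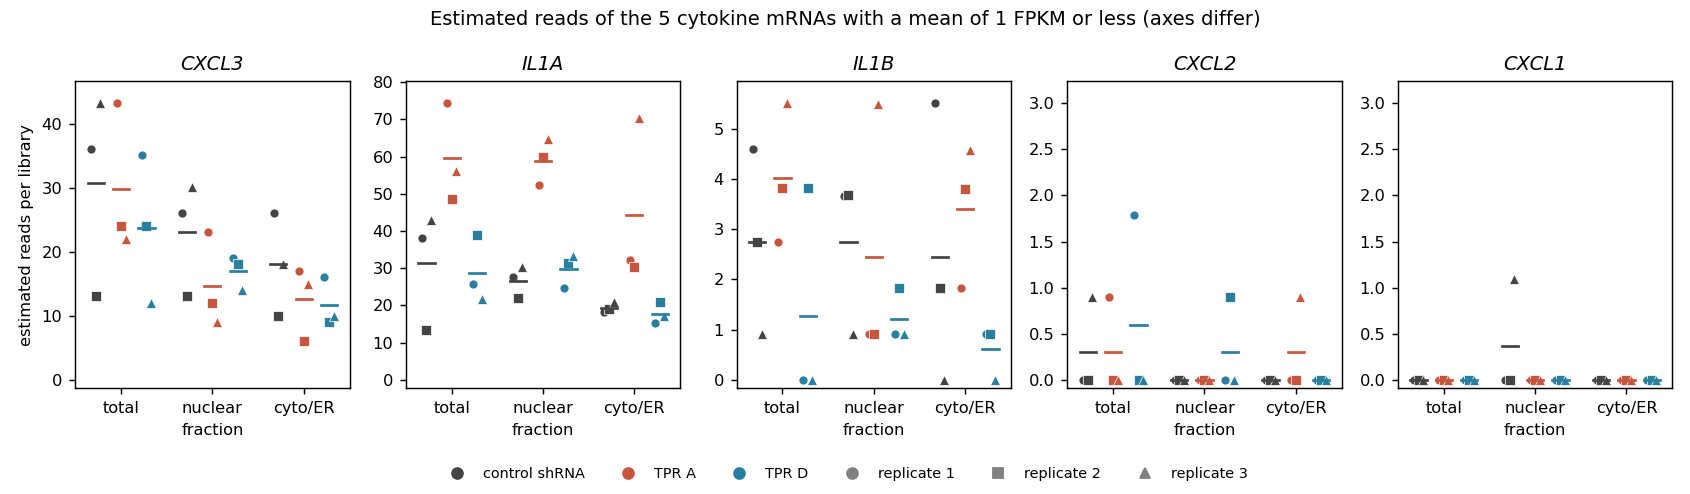
Estimated reads of the 5 members with a mean of 1 FPKM or less, by fraction and shRNA, with a linear axis for each gene. Points are single libraries and bars are group means. CXCL1 and CXCL2 are at 0 in 26 and 22 of 27 libraries, and the IL1A points of TPR A stand above those of the controls in each fraction.

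Interleukin-6 and the related LIF and interleukin-11 signal through the shared receptor chain gp130, encoded by IL6ST, to JAK kinases and STAT3. IL6 in total RNA was at 2.57, 0.917 and 3.75 FPKM in controls, 2.06, 0.779 and 1.01 with TPR A, and 3.18, 0.911 and 0.999 with TPR D. Nuclear values were 2.12, 0.917 and 3.96 in controls, 1.95, 0.765 and 0.542 with TPR A, and 1.59, 1.36 and 0.742 with TPR D. Cytoplasmic/ER values were 2.64, 1.33 and 3.49 in controls, 1.45, 1.04 and 1.12 with TPR A, and 1.94, 0.797 and 1.24 with TPR D.

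The groups overlapped in IL6 in every fraction. Control replicate 2 was the lowest control in each, and in total RNA TPR D replicate 1 was also above control replicate 1. Against the control of the same number and fraction, IL6 was lower in 9 of 9 TPR A and 7 of 9 TPR D libraries. As for CCL2, these counts reuse 3 control cultures and take 3 libraries from each depleted culture, with no share over all genes. The limma difference for both shRNAs in total RNA was -0.58 (SE 0.51, 95% interval -1.64 to 0.49, adjusted p = 0.592). The exact permutation test gave 0.31 in total, 0.155 in nuclear and 0.0476 in cytoplasmic/ER RNA. Without control replicate 2 the total difference was -1.16, and without control replicate 3 it was -0.14. Without the nuclear and total libraries of control replicate 2 the nuclear difference was -1.51 for TPR A against -1.22 for TPR D (adjusted p = 0.343 and 0.575). An antisense RNA, IL6-AS1, overlaps the gene and averaged 0.853 FPKM over all libraries.

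LIF, a growth factor that also acts on stem cells, was not lower on average in total or nuclear RNA. In total RNA it was at 4.12, 3.0 and 6.63 FPKM in controls, 3.47, 7.04 and 7.82 with TPR A, and 3.3, 6.06 and 5.82 with TPR D. Nuclear values were 3.65, 3.91 and 3.68 in controls, 4.15, 4.42 and 4.1 with TPR A, and 4.34, 3.73 and 3.89 with TPR D. TPR A was above the controls without overlap there, as were 8.16% of genes, by 0.17 on the log2 scale (adjusted p = 0.861). Cytoplasmic/ER values ran from 2.33 to 3.55 in controls, 1.97 to 3.38 with TPR A and 2.03 to 3.42 with TPR D, with differences of -0.051 and -0.18. The total difference for both shRNAs was 0.35 (95% interval -0.22 to 0.92, adjusted p = 0.542), and 0.06 without control replicate 2.

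IL11, which acts on bone cells and fibroblasts, was the most even member. Its total level was 5.56, 3.63 and 5.45 FPKM in controls, 3.8, 6.16 and 6.48 with TPR A, and 5.56, 4.18 and 5.07 with TPR D. Nuclear levels ran from 3.51 to 4.73 in controls, 3.99 to 6.28 with TPR A and 3.31 to 4.68 with TPR D, and the groups overlapped. Cytoplasmic/ER levels ran from 6.0 to 6.61 in controls, 6.01 to 9.7 with TPR A and 4.73 to 7.29 with TPR D. The total difference for both shRNAs was 0.16 (SE 0.22, 95% interval -0.29 to 0.61, adjusted p = 0.743). It was -0.07 without control replicate 2, so no direction can be given.

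IL1A and IL1B encode the 2 forms of interleukin-1, of which the α form acts upstream of other secretory factors. IL1B was listed at 0 in 4 libraries and reached at most an estimated 5.51 reads, 62.8 over all 27. IL1A lay between 0.177 and 0.922 FPKM, an estimated 13.3 to 74.3 reads. Total values of IL1A ran from 0.181 to 0.414 in controls, 0.418 to 0.526 with TPR A and 0.199 to 0.356 with TPR D. Nuclear values ran from 0.247 to 0.349, 0.544 to 0.796 and 0.226 to 0.352. Cytoplasmic/ER values ran from 0.293 to 0.333, 0.398 to 0.922 and 0.177 to 0.348.

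TPR A cultures thus had more IL1A than every control in each fraction, and TPR D cultures overlapped with the controls. Among genes above the floor, 9.74% were higher without overlap with TPR A in total, 8.16% in nuclear and 7.17% in cytoplasmic/ER RNA. Fitted without a floor, the IL1A difference with TPR A was 0.47 in total (adjusted p = 0.571), 0.88 in nuclear (SE 0.29, unadjusted p = 0.00644, adjusted p = 0.209) and 0.69 in cytoplasmic/ER RNA (adjusted p = 0.38). With TPR D it was -0.23, -0.01 and -0.25. The difference between TPR A and TPR D in total RNA was 0.69 (unadjusted p = 0.0272, adjusted p = 0.605).

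Over the 5 members that could be tested, none passed an adjusted p of 0.05 in any comparison of TPR-depleted with control cells. In total RNA 0.821% of the 14611 genes passed with TPR A, 0.753% with TPR D and 1.14% with both together. In cytoplasmic/ER RNA 0.623% of genes passed for TPR A and 0.575% for TPR D. The nuclear shares were 0.903% and 0.479%. At an unadjusted p under 0.05 the members numbered 1 of 5 in total RNA for each shRNA and for the pair, where 12.6%, 14.6% and 16.1% of genes did so. They numbered 2 of 5, CXCL8 and CCL2, in nuclear RNA with TPR D (9.13% of genes) and in cytoplasmic/ER RNA with TPR A (11.6%) and TPR D (9.42%), and 0 of 5 in nuclear RNA with TPR A (12.2%). The median difference of the 5 in total RNA was -0.72 with TPR A, -0.44 with TPR D and -0.58 with both, beside -0.01 over all genes in each case. CXCL8, CCL2 and IL6 were lower in each of these and LIF and IL11 higher, although without control replicate 2 the sign turned for IL11 in all of them and for LIF with TPR D. TPR A and TPR D share their controls, so the 2 sets of values are not independent. In the direct comparison of TPR A with TPR D no member was called (0.281% of genes), with differences from -0.28 for IL6 to 0.22 for LIF.

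**Figure D3:**
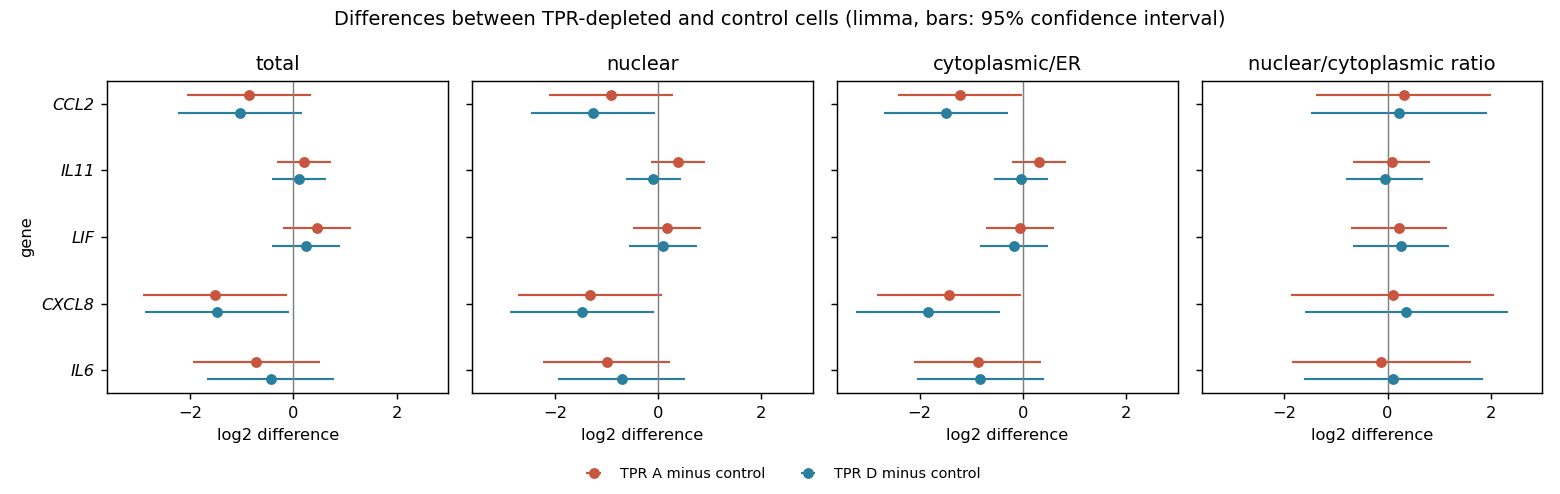
Log2 difference from control of the 5 testable members for TPR A and TPR D in total, nuclear and cytoplasmic/ER RNA and in the nuclear to cytoplasmic ratio (limma estimates with 95% confidence intervals, all 27 libraries in the fit). All intervals for CCL2, CXCL8 and IL6 reach more than 1 log2 unit to each side of the estimate, and those of LIF and IL11 are narrower. All intervals of IL6, LIF and IL11 include 0, as do all those of the ratio, while some of CCL2 and CXCL8 do not.

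In total RNA, CXCL8 was most like SCPEP1, FNDC10 and the unnamed gene ENSG00000271754, with a Pearson correlation of 0.914, 0.857 and 0.876 over the 9 total libraries. CCL2 was most like ARL6IP6 (0.951), C1orf21 (0.938) and SLC16A10 (0.935), and IL6 was most like CRY1 (0.945), NR4A2 (0.933) and ENSG00000269292 (0.922). LIF was most like MATCAP1 (0.973), ZNF333 (0.967) and COL27A1 (0.966). IL11 was most like CDRT4 (0.931), ANKMY1 (0.915) and ENSG00000266753 (0.911). None of these lists holds another member. Among the members, the closest pairs were CXCL3 with IL6 (0.833) and IL11 with LIF (0.663), and the most opposed was LIF with CCL2 (-0.56). These values describe 9 libraries, from 3 shRNAs, and were picked as the highest of many. The 9 include the total library of control replicate 2 that stood apart, and no correlation without it is given.

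Where the mRNAs resided differed between members, and the distribution was compared by N/C, the nuclear level of a culture divided by its cytoplasmic/ER level, on the log2 scale. LIF was higher in the nuclear than in the cytoplasmic/ER library of all 9 cultures, with a ratio of 0.0829 to 1.05 and a median of 0.633. IL11 was lower in the nuclear library of all 9 cultures, from -1.09 to -0.43 with a median of -0.57. CCL2 was lower in 8 of 9 cultures (median -0.45) and IL6 in 6 (median -0.27), whereas CXCL8 was higher in 7 (median 0.342). The ratio of control replicate 2 was 0.547 for LIF and -0.428 for IL11, and used the nuclear library that stood apart in its mitochondrial share. The values are relative to each library's own total, and so give the order of mRNAs and not molecules per compartment.

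In control cells the N/C of IL11 was -0.62 (SE 0.25, adjusted p = 0.0558), against 39.4% of genes called in either direction. It was called when each culture was kept as a block (adjusted p = 0.0226, with 47.0% of genes called) and without the nuclear and total libraries of control replicate 2 (-0.75, adjusted p = 0.029). CCL2 had a control N/C of -0.61 (adjusted p = 0.426, and 0.0336 with the block), LIF one of 0.43 (adjusted p = 0.298), CXCL8 one of 0.15 and IL6 one of -0.17. Without the nuclear and total libraries of control replicate 2, but with its cytoplasmic/ER library kept, the value of IL6 was 0.34. It was -0.033 without the whole culture.

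**Figure D4:**
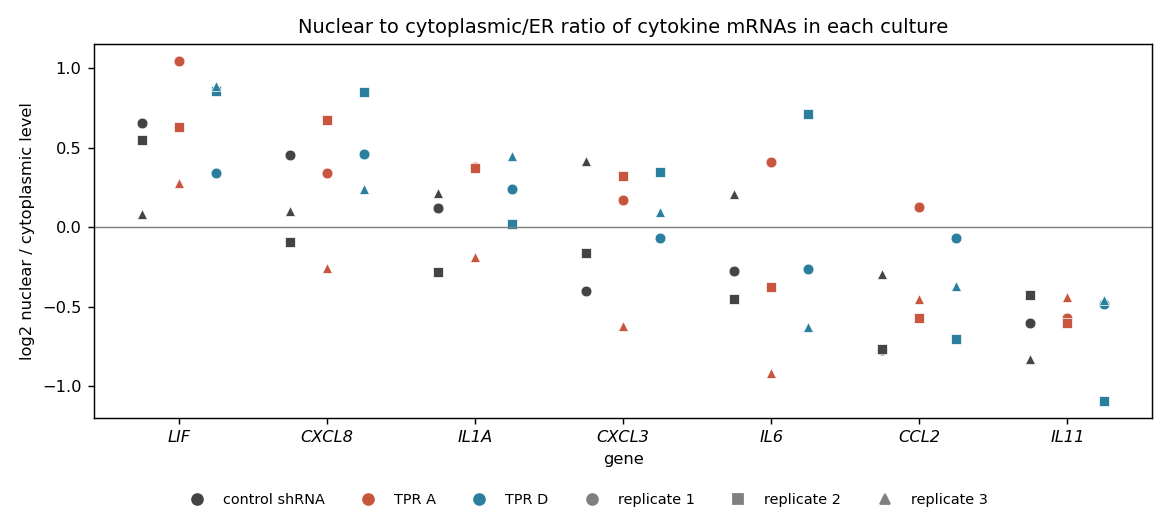
Nuclear level over cytoplasmic/ER level, as a log2 ratio, in each of 9 cultures for the 7 members detected in every library, ordered from LIF to IL11. Points are cultures, coloured by shRNA and shaped by replicate. All LIF points are above 0 and all IL11 points below it, and the 3 shRNAs overlap for each gene.

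With all libraries kept, depletion of TPR moved none of these ratios beyond the spread of the cultures. The change in N/C for both shRNAs was 0.27 for CCL2 (95% interval -1.202 to 1.74), 0.23 for CXCL8 (-1.47 to 1.94), 0.25 for LIF (-0.56 to 1.05), 0.01 for IL11 (-0.63 to 0.65) and -0.0038 for IL6 (-1.51 to 1.5). No gene of the 14611 was called for this change (0%), and 1.72% had an unadjusted p under 0.05, none of them a member. With each culture as a block, which uses the pairing of its fractions, the intervals were -0.31 to 0.85 for CCL2, -0.50 to 0.96 for CXCL8, -0.52 to 1.01 for LIF, -0.53 to 0.55 for IL11 and -0.80 to 0.79 for IL6, and no gene was called. All these values use the nuclear library of control replicate 2 that stood apart, and no interval is given without it. Without its nuclear and total libraries, IL6 differed by -1.51 (TPR A) and -1.22 (TPR D) in nuclear RNA. The cytoplasmic/ER values beside these were -0.88 and -0.82. For CCL2 they were -1.095 and -1.44 in nuclear RNA beside -1.22 and -1.49. CXCL8 was lower in the nuclear as well as in the cytoplasmic/ER library of each TPR D culture, and its N/C in TPR D ran from 0.242 to 0.851 beside -0.09 to 0.455 in controls.

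Short genes as a class had a median change above 0. The median N/C change of 3289 protein-coding genes with a median pre-mRNA under 10 kb was 0.227, and 77.4% of them were above 0. Over all 12333 protein-coding genes it was -0.0038, with 49.6% above 0. The 5 testable members, all under 10 kb, had a median of 0.231 and 4 of them were above 0. CXCL8, LIF and CCL2 exceeded 50.4%, 52.8% and 56.6% of these short genes, whereas IL6 and IL11 exceeded 22.3% and 24.0%. These changes, too, use the nuclear library of control replicate 2 that stood apart.

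**Figure D5:**
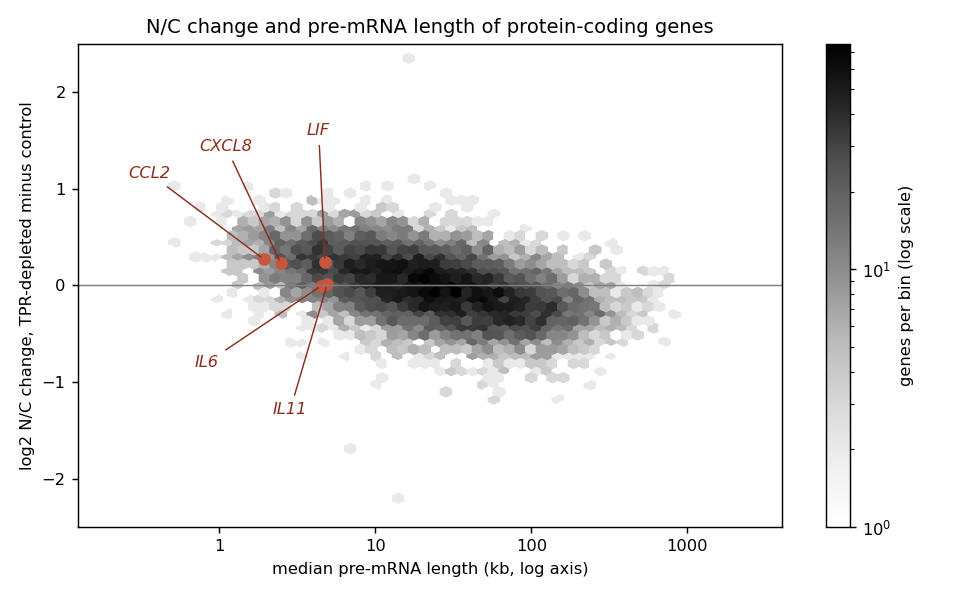
Change in N/C for both shRNAs against median pre-mRNA length (log axis) for 12333 protein-coding genes, shown as bins shaded by the number of genes, with the 5 testable members as points. The cloud slopes from above 0 at short lengths to below 0 at long ones, and CCL2, CXCL8, LIF, IL11 and IL6 sit inside it at the short end.

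The receptors of these cytokines were looked at next. Of 11 receptors and antagonists 7 exceeded 1 FPKM. IL6ST averaged 188.4 FPKM, IL1RAP 14.6 and LIFR 14.0, while of the interleukin-8 receptors CXCR1 was listed at 0 in 26 libraries and CXCR2 averaged 0.41 (0.00765 to 2.28), and CCR2, the CCL2 receptor, averaged 0.0113. None was called in total or cytoplasmic/ER RNA. IL6ST in total RNA varied from 92.6 to 579.2 FPKM within the controls, and its difference for both shRNAs was -0.24 (SE 0.69, adjusted p = 0.892).

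One receptor gene passed the test in nuclear RNA. IL1R2 encodes the decoy receptor that binds interleukin-1 without signalling. It was at 0.825, 0.512 and 1.01 FPKM in control nuclei, 2.09, 2.34 and 2.21 with TPR A, and 2.0, 2.56 and 2.56 with TPR D. It rose 2.7-fold with TPR A (log2 difference 1.43, SE 0.31, adjusted p = 0.0225) and 2.88-fold with TPR D (log2 difference 1.52, adjusted p = 0.0215), in comparisons where 0.903% and 0.479% of genes were called. All 6 TPR-depleted cultures were above the controls in total RNA as well, at 1.01 to 1.29 against 0.481 to 0.806 FPKM, as were 3.94% of genes, but the difference there was 0.85 (adjusted p = 0.115). The change in its N/C was 0.79 (unadjusted p = 0.0466, adjusted p = 0.999). Without the nuclear and total libraries of control replicate 2 the nuclear differences were 1.197 and 1.29 (adjusted p = 0.126 and 0.105), and with only the groups compared in the fit the adjusted p was 0.24 and 0.318. With replicates 2 and 3 alone it was 0.144 and 0.191. With cultures left out in turn, the TPR A call was lost without control replicate 1 or 2, TPR A replicate 2 or 3 or TPR D replicate 3 (adjusted p from 0.0513 to 0.192), and the TPR D call without control replicate 1 or 2 or TPR D replicate 2 or 3 (adjusted p from 0.0719 to 0.195).

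The regulators upstream were measured well and none was called. Of 16 NF-κB and C/EBP genes 15 were matched, all of them above 1 FPKM. Their median difference for both shRNAs in total RNA was -0.32, and 4 of 15 were lower at an unadjusted p under 0.05, where 8.19% of genes were. This count includes the total library of control replicate 2 that stood apart, and none is given without it. RELA, the transactivating NF-κB subunit, averaged 328.1 ± 96.1 FPKM in controls, 203.2 ± 39.2 with TPR A and 230.9 ± 107.8 with TPR D, with a difference of -0.57 (adjusted p = 0.315). NFKB2 was at 71.4 ± 38.1, 38.9 ± 2.65 and 29.6 ± 4.67 (difference -0.88, adjusted p = 0.167). NFKBIA, the inhibitor that NF-κB itself induces, was at 134.3 ± 39.2, 79.3 ± 48.9 and 94.9 ± 3.8 (difference -0.67, adjusted p = 0.33). In nuclear RNA 1 of the 15 genes had an unadjusted p under 0.05 with TPR A and 2 with TPR D, where 12.2% and 9.13% of genes did. In cytoplasmic/ER RNA 1 did so with each (11.6% and 9.42% of genes). All of these were lower.

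The 7 JAK-STAT3 genes had a median difference of -0.07 and none was called. STAT3 was at 61.1 ± 20.9 FPKM in controls, 40.9 ± 1.68 with TPR A and 53.4 ± 19.3 with TPR D. Of the 9 proteins that bind AU-rich elements, none was called in total RNA, while an unadjusted p under 0.05 was reached by 2 that were higher and 3 that were lower, or 5 of 9 against 16.1% of genes. The total controls include the library of control replicate 2 that stood apart, and no value without it is given for these genes. ZFP36L1, which promotes decay, was at 154.1 ± 49.9, 227.3 ± 22.7 and 214.4 ± 36.3 FPKM (difference 0.63, adjusted p = 0.26), and KHSRP, which also promotes decay, at 310.3 ± 122.7, 191.5 ± 48.3 and 166.1 ± 18.2 (difference -0.67, adjusted p = 0.187). In nuclear and cytoplasmic/ER RNA 0 of the 9 reached an unadjusted p under 0.05 with either shRNA, where 9.13% to 12.2% of genes did.

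Of 21 further cytokines and growth factors with a row 10 were above 1 FPKM, none was called, and their median difference in total RNA was -0.001. IL18, at 229.8 ± 42.1 FPKM in controls, was far above every member, with 220.0 ± 33.8 for TPR A and 230.2 ± 120.6 for TPR D. Of 22 secreted proteases and their modulators 17 were above 1 FPKM and 1 was called. This was IGFBP6, an IGF-binding protein, which rose 2.71-fold in nuclear RNA with TPR A (adjusted p = 0.0335), from 9.73, 7.85 and 16.8 FPKM to 22.2, 34.2 and 33.8. It was at 19.3, 17.8 and 19.1 with TPR D (difference 0.79, adjusted p = 0.437), and without the nuclear and total libraries of control replicate 2 the TPR A difference was 1.21 (adjusted p = 0.176). That call was also lost without control replicate 1, TPR A replicate 2 or 3, or TPR D replicate 3 (adjusted p from 0.0625 to 0.248), with no minimum (0.0512), with only the groups compared (0.24) and with replicates 2 and 3 alone (0.131). TIMP2, a protease inhibitor, was at 118.8 ± 26.6, 61.3 ± 12.1 and 72.6 ± 13.3 FPKM in total RNA (difference -0.76, adjusted p = 0.0911).

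Of 10 senescence and cGAS-STING genes 9 exceeded 1 FPKM and none was called with TPR shRNAs. CDKN1A, which encodes p21, was at 140.0 ± 57.7 FPKM in control total RNA, 203.7 ± 14.4 with TPR A and 107.0 ± 10.9 with TPR D (difference between TPR A and TPR D 0.92, adjusted p = 0.364). LMNB1, a lamin lost in senescence, was at 98.3 ± 49.4, 58.1 ± 11.2 and 57.2 ± 8.74 (difference -0.58, adjusted p = 0.258). CDKN2A, the gene of p16, averaged 0.0762 FPKM and was named after its value was seen.

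The summed level of the 6 leukocyte markers, carried by CD68, ran from 4.87 to 6.15 FPKM in control total RNA, 7.9 to 12.9 with TPR A and 5.48 to 13.9 with TPR D. In nuclear RNA it ran from 4.8 to 10.5, 13.3 to 21.0 and 13.4 to 18.1, and in cytoplasmic/ER RNA from 4.78 to 9.66, 12.5 to 19.1 and 12.9 to 27.9. CD68 alone was 2.14-fold higher with both shRNAs in total RNA (adjusted p = 0.126), opposite in direction to CXCL8. Its part in the CXCL8 result was not tested. The endothelial markers VWF, CDH5 and TEK were all below 1 FPKM, and EPCAM, at 3.88, was the 1 of 4 epithelial markers above it (difference 0.34, adjusted p = 0.589). The sum of the 4 ran from 3.33 to 5.35 FPKM in control total RNA, 5.8 to 7.96 with TPR A and 4.46 to 7.83 with TPR D. In cytoplasmic/ER RNA it ran from 2.84 to 3.9, 4.91 to 5.8 and 2.75 to 4.32, and in nuclear RNA from 4.47 to 5.64, 5.62 to 7.4 and 4.42 to 5.89. The 4 osteoblast markers above 1 FPKM were all higher in nuclear RNA with TPR A at an unadjusted p under 0.05, which 12.2% of genes reached in either direction. Their median difference was 0.77, and none was called. For TPR D the nuclear count was 0 of 4 (median 0.15), where 9.13% of genes reached that p. In cytoplasmic/ER RNA the count was 2 for TPR A but 0 for TPR D, and in total RNA it was 2 and 1. The nuclear controls include the library of control replicate 2 that stood apart, and no value without it is given for these markers. The part of these markers in the cytokine values was not tested.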

How the data were processed

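Poly(A)+ RNA of the total, nuclear and cytoplasmic/ER samples was sequenced from directional libraries. The authors quantified reads with Salmon against Gencode transcripts of hg19, summed them to genes and deposited FPKM values. The authors also used DESeq2, whose results are not used here, and tool versions are not given in the sources used here. The 27 libraries were grouped by their labels. The deposited FPKM of 34464 genes (32776 matched to a symbol) were divided by median-of-ratios size factors and tested as log2(FPKM + 0.1) in limma 3.58.1 (R 4.3.3, trend, 9 groups in 1 fit) over 14611 genes with a mean above 1 FPKM, the 13 mitochondrial genes left out. This fit had no term for the culture, so the 3 libraries of a culture counted as independent. P-values were adjusted by Benjamini-Hochberg and called under 0.05. Fold changes on this scale understate those of low genes. Members under that mean were fitted with no minimum. Single values were tested by exact permutation over cultures with Python 3.11.15. Reads per gene were estimated from the steps of 1 read in 7997 genes with a single transcript (84.6% to 88.4% of low values lay within 0.1 of a whole number), after 260 bases were taken from each length, and cover counting error only. The fit was tested on simulated data, where 182 of 200 genes changed by 2 on the log2 scale were recovered with 9 false calls among 14611 (total RNA, both shRNAs). The simulated noise was independent between libraries, whereas libraries of a culture were correlated, so the false calls do not carry over to these data. With all cultures in the fit, no member differed by as much as 2 in total RNA, so the recovery does not apply to their differences. Gene models came from GENCODE on GRCh37, and promoters from RefSeq.

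The members and gene lists were chosen with earlier results of these data known. All 10 members were named, TPR as the check of the labels, and from each list the genes past the threshold or, otherwise, up to 3 by mean FPKM. The 3 most alike genes were those with the highest Pearson correlation. Any other gene was picked with its values in view. IKBKG, CCL5 and PECAM1 were not analysed here.

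Replicate numbers are shared between shRNAs. In total RNA the correlation of deviations of same-numbered libraries was 0.137 to 0.324 between control and TPR A but -0.01 to 0.197 between control and TPR D. By the criterion that every pair exceed 0.1, the numbers paired control with TPR A there, and TPR A with TPR D in the nuclear (0.131 to 0.265) and cytoplasmic/ER fractions (0.397 to 0.596), and no other shRNAs. Nothing in the labels ties the numbers to a shared day. Nuclear and cytoplasmic/ER libraries of a culture correlated at 0.223 to 0.468. Alternatives were the deposited scale, other pseudocounts and minimums, no trend, fewer groups, blocks, replicates 2 and 3 alone (their labels are written in another style) and each culture left out. Leaving out the nuclear and total libraries of control replicate 2 was chosen after seeing the data.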

Additional observations from a re-analysis of the deposited data

How the results depend on the processing

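The number of members called stayed at 0 in the comparisons of total, nuclear and cytoplasmic/ER RNA with control under each setting except one, and ran from 0 to 1 when cultures were left out in turn, the 1 being CXCL8 without TPR A replicate 3. The comparison of TPR A with TPR D and the N/C changes stayed at 0 throughout. The control N/C had 1 call on the deposited scale, 2 with the culture as a block, 1 without the nuclear and total libraries of control replicate 2, and 0 to 1 when cultures were left out. With the replicate number as a block 0 members were called in each comparison, and the block changed no other call. Members with an exact p under 0.05 in total RNA for both shRNAs numbered 1, and 1 to 2 when cultures were left out, CCL2 joining CXCL8 without control replicate 3 (exact permutation p = 0.0357). Some signs turned. The N/C change of IL6 became 0.0168 on the deposited scale, 0.0147 with a pseudocount of 1 and 0.0168 with no minimum, with a range of -0.20 to 0.19 over left-out cultures. That of IL11 became -0.0129 with a minimum of 5 FPKM and -0.0218 with replicates 2 and 3 alone, with a range of -0.0917 to 0.115. Neither range includes the fit without the nuclear and total libraries of control replicate 2. There IL6 differed by -1.51 with TPR A and -1.22 with TPR D in nuclear RNA. In cytoplasmic/ER RNA it differed by -0.88 and -0.82, so its N/C change was further below 0. Without the nuclear and total libraries of control replicate 2, the control N/C of IL6 was 0.34 (it stayed below 0 when whole cultures were left out), LIF with TPR D in total RNA was -0.0543, and IL11 in total RNA was -0.0146, -0.12 and -0.067 with TPR A, TPR D and both. Leaving out cultures gave ranges of -0.0543 to 0.56 for LIF with TPR D, and of -0.0146 to 0.45, -0.12 to 0.23 and -0.067 to 0.28 for IL11. Their causes were not tested. A group size of 3 cultures and the depth of CXCL1, CXCL2 and IL1B limit what could be detected.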
